A study of Mus musculus with 2 samples.

Results

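The brain surface and its penetrating vessels carry a connective tissue made by fibroblasts and vascular cells. The 41 genes described here encode the collagens, proteoglycans, basement membrane chains, secreted proteins, transporters and regulators that are known from meningeal fibroblasts and vessel walls. They were read in total RNA from mouse hippocampus, as 41 of 55536 annotated genes. The 41 genes were selected by a list of symbols drawn up when the levels and the ratios between the animals were already known. Levels and ratios are therefore given as a description, with no test.

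Hippocampus came from adult female B6CASTF1/J mice, which were 8 to 10 months old and are hybrids of the C57BL/6J and CAST/EiJ strains. Replicate 2 was taken from animal 5 and replicate 1 from animal 1, and ERCC spike-ins had been added to the 300 ng of RNA behind each library. No treatment or genotype was compared, and both animals form 1 group. The labels give both samples the same donor identifier, so their reading as 2 animals rests on the animal numbers. The tissue term is a layer of the hippocampus, and how far meninges or choroid plexus were dissected away was not stated in the sources.

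The gene tables held 28417193 expected counts in replicate 2 and 34208349 in replicate 1. Spike-ins took 0.212% of them in replicate 2 and 0.178% in replicate 1. Levels are in TPM, which correct for transcript length, as the mean ± SD over n = 2. The effective length used for this was given for each library, so a ratio of TPM can differ from a ratio of counts. Ratios are the log2 of replicate 2 over replicate 1, from expected counts scaled by the trimmed mean of M-values (TMM). Beside a ratio, brackets hold its exact Clopper-Pearson 95% interval, which covers counting error only. For the 18612 genes that averaged 10 or more counts, the log2 ratio had a median of -0.01 and 48.5% were higher in replicate 2. Scaling by spike-ins instead moved that median to -0.25, and directions that turn with it are named beside the values.

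As background, fibroblasts of the pia and arachnoid lay down fibrils of collagens I and III, whose width and spacing are set by collagen V and by small leucine-rich proteoglycans. Endothelial cells, mural cells, astrocytes and fibroblasts together form basement membranes, which are sheets of collagen IV and laminin linked by nidogen. Meningeal fibroblasts are also known as a source of retinoic acid and as a site of solute transport at the brain surface. Several of these genes are made elsewhere in the brain too. Ptgds, for example, is known from oligodendrocytes as well as from the leptomeninges.

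Most of the genes were present at low levels. A TPM of at least 1 in both libraries was reached by 39 of 41. Mean levels were at least 10 TPM for 9 genes, between 1 and 10 TPM for 30, and below 1 TPM for the transcription factors Tbx18 and Foxd1. The 41 genes summed to 751 TPM in replicate 2 and 1045 TPM in replicate 1. Ptgds and Sparc made up most of this, since the other 39 summed to 245 TPM in replicate 2 and 266 TPM in replicate 1. Ordered by mean level, 9 of the 40 neighbouring pairs were separated by more than both SDs with the same sign in both libraries. Among them were Ptgds above Sparc, Sparc above Dcn, and Dcn above the next gene, Col4a2. The long run from Slc6a20a down to Foxc1 had few such steps, and the order within it is mostly not resolved with n = 2.

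**Figure D1:**
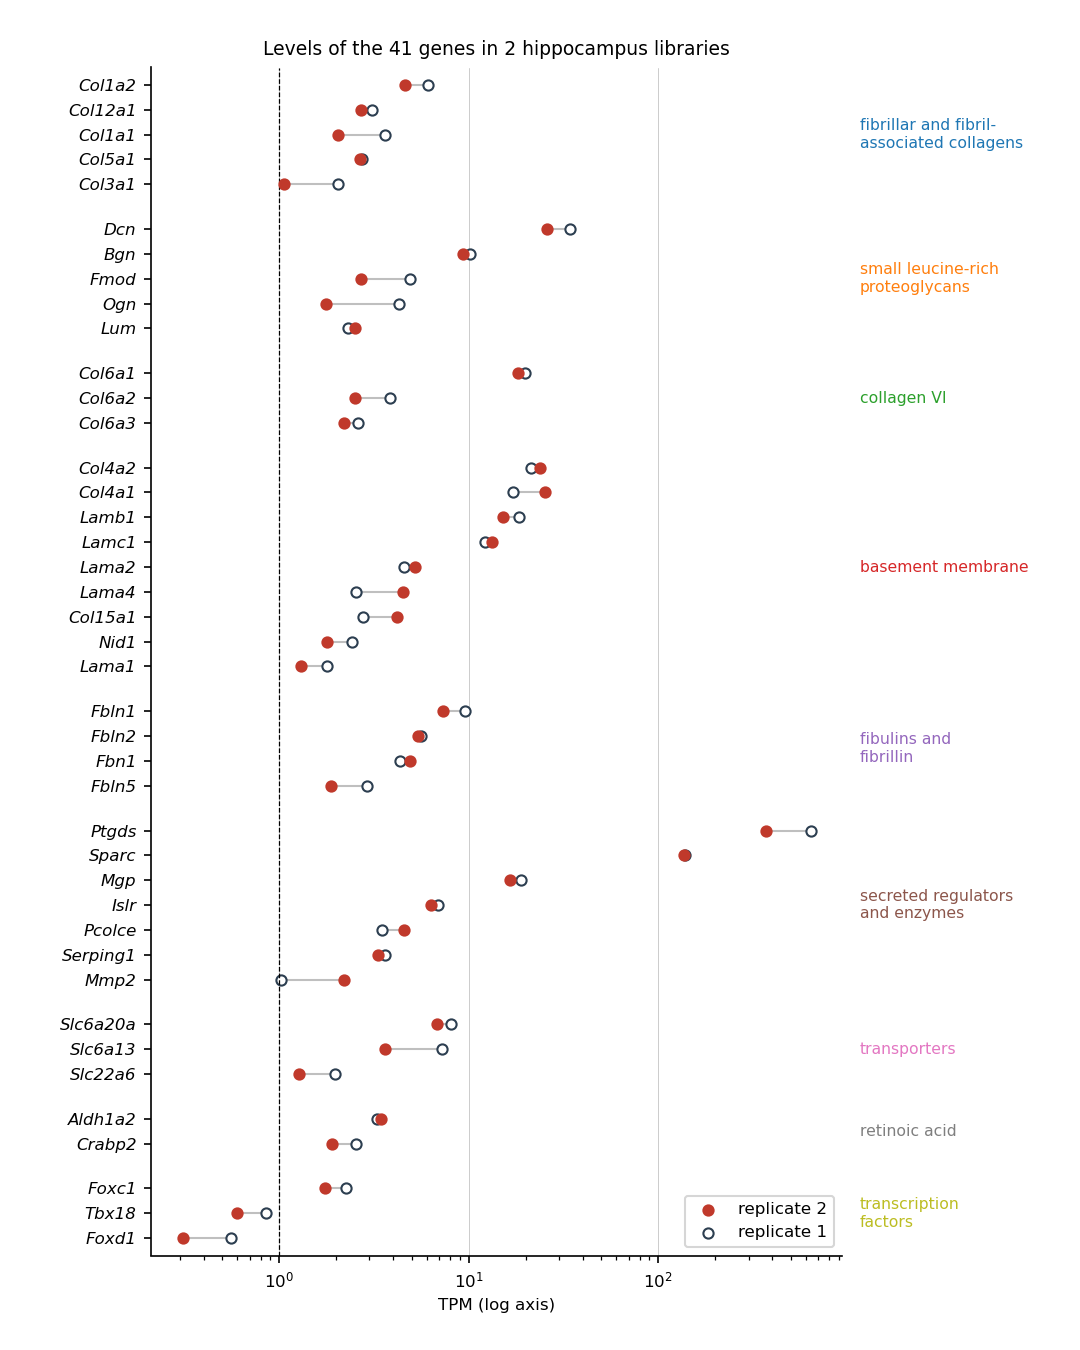
Levels of the 41 genes by role, in TPM on a log axis, with filled points for replicate 2 and open points for replicate 1, and a dashed line at 1 TPM. Ptgds and Sparc stand above 100 TPM, 39 genes lie at or above 1 TPM in both libraries, and Tbx18 and Foxd1 lie below it.

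More of the genes were lower than higher in replicate 2. The log2 ratio was below 0 for 28 of the 41 and above 0 for 13, or for 35 and 6 with spike-in scaling, under which only 20.1% of all 18612 genes with a ratio were higher. Their median log2 ratio was -0.18, and it was -0.42 with spike-in scaling. Of the 39 genes with a mean count of at least 50, the counting interval excluded equality for 17 that were lower and 6 that were higher. Among all 14434 genes tested in the same way, 25.6% were lower and 18.7% higher by that rule. A gene counted as differing at least 2-fold where the log2 ratio was at least 1 in size, the mean count at least 50 and the interval excluded equality. Ogn and Fmod were lower in replicate 2 by that rule, as were 0.513% of all genes tested. None of the 39 was higher by it, against 0.589% of all genes tested. Since the list was drawn up with these ratios known, nothing is read from these shares. In bulk tissue, fewer cells of a type and less RNA per cell cannot be told apart.

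**Figure D2:**
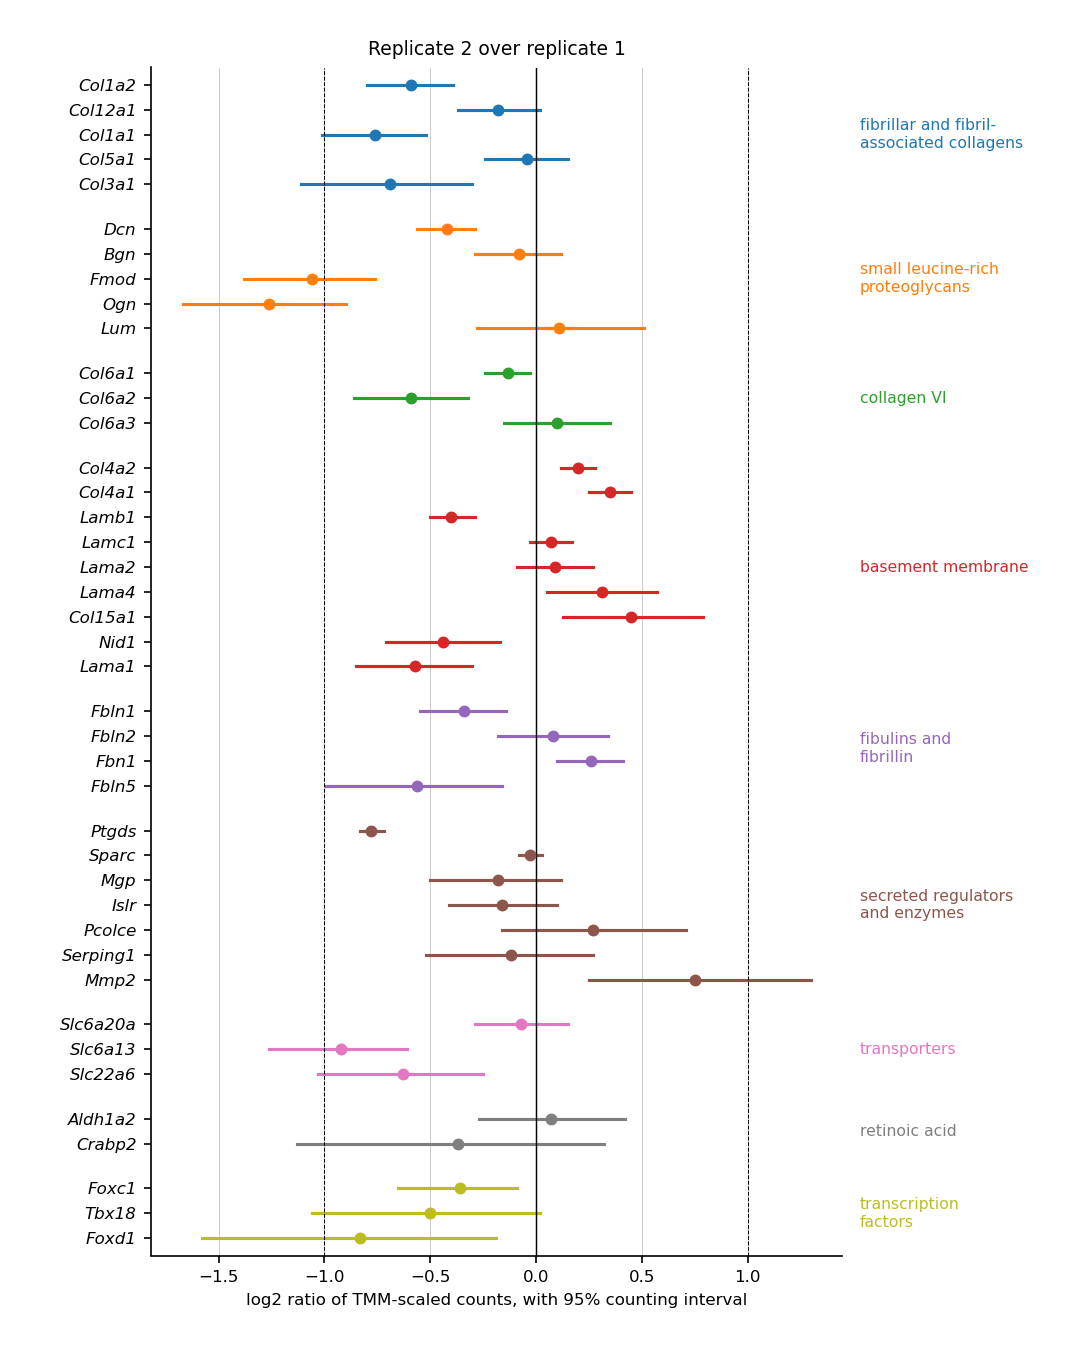
Log2 ratio of replicate 2 over replicate 1 for each gene, from TMM-scaled counts, with 95% counting intervals, a solid line at equality and dashed lines at 2-fold. Ogn and Fmod have ratios beyond the lower dashed line, and collagen IV, Col15a1, Lama4, Fbn1 and Mmp2 have intervals wholly above 0 under TMM scaling. With spike-in scaling Col4a2 was at -0.04, Fbn1 at 0.01, Lama4 at 0.07, Col4a1 at 0.11, Col15a1 at 0.21 and Mmp2 at 0.51. No intervals are given for that scaling.

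The fibrillar and fibril-associated collagens were at 1.06 to 6.10 TPM, and all 5 had a ratio below 0, also with spike-in scaling. Their median log2 ratio was -0.59. Col1a2, the second chain of collagen I, had 4.60 TPM in replicate 2 and 6.10 TPM in replicate 1, from 310 and 559 counts. Its log2 ratio was -0.59 (-0.80 to -0.39). Col1a1, the major chain, had 2.05 TPM in replicate 2 and 3.61 TPM in replicate 1, from 211 and 429 counts, at a log2 ratio of -0.76 (-1.01 to -0.52). Both chains were thus lower in replicate 2 by more than counting error. Collagen I is assembled from more Col1a1 chains than Col1a2 chains, but the transcripts ran the other way here, at a Col1a1 over Col1a2 ratio of 0.446 in replicate 2 and 0.592 in replicate 1. This order was the same in the second transcript table, at 0.474 in replicate 2 and 0.643 in replicate 1. Col3a1, the chain of collagen III, had 1.06 TPM in replicate 2 and 2.04 TPM in replicate 1, at a log2 ratio of -0.69 (-1.11 to -0.30). Col5a1, a regulator of fibril width, had 2.67 TPM in replicate 2 and 2.75 TPM in replicate 1. Col12a1, which sits on fibril surfaces, had 2.72 TPM in replicate 2 and 3.11 TPM in replicate 1. The intervals of Col5a1 and Col12a1 included equality.

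The small leucine-rich proteoglycans held the genes with the largest differences. Ogn, which encodes osteoglycin, had 1.77 TPM in replicate 2 and 4.31 TPM in replicate 1, from 77 and 224 counts. On the log2 scale this was -1.26 (-1.67 to -0.90), a 2.40-fold difference. Fmod, which encodes the collagen-binding fibromodulin, had 2.71 TPM in replicate 2 and 4.88 TPM in replicate 1, from 124 and 311 counts. The log2 ratio stood at -1.06 (-1.38 to -0.76). Both intervals lie wholly below 0, but they reach up to -0.90 for Ogn and -0.76 for Fmod, so a difference smaller than 2-fold is within counting error. Dcn, which encodes decorin, was the group's most abundant gene at 30.1 ± 6.07 TPM. It had 25.8 TPM in replicate 2 and 34.4 TPM in replicate 1, at a log2 ratio of -0.42 (-0.56 to -0.29). Bgn, which encodes biglycan, had 9.36 TPM in replicate 2 and 10.2 TPM in replicate 1, with an interval that included equality. Lum, which encodes lumican, had 2.51 TPM in replicate 2 and 2.32 TPM in replicate 1, at a log2 ratio of 0.11 that became -0.13 with spike-in scaling. In this family 4 of 5 ratios were below 0, and all 5 were with spike-in scaling. The family therefore spanned log2 ratios from -1.26 to 0.11.

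Ogn and Fmod are shown by their promoters because no other member met the 2-fold rule. The windows come from RefSeq on GRCm38.p6 and run from 250 bases before to 50 after the annotated start, on the coding strand. Ogn (ENSMUSG00000021390.6) has the window chr13:49607765-49608064 on the plus strand and Fmod (ENSMUSG00000041559.7) chr1:134037004-134037303 on the plus strand. Capitals mark TTATTCAGCAG, the longest run of letters, 11 bases, that both windows hold.
Ogn: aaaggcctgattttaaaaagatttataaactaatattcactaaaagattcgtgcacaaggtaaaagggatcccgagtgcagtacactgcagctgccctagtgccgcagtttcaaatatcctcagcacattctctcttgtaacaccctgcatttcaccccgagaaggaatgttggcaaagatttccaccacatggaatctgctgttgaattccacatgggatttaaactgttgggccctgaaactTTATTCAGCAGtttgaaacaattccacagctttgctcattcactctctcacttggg
Fmod: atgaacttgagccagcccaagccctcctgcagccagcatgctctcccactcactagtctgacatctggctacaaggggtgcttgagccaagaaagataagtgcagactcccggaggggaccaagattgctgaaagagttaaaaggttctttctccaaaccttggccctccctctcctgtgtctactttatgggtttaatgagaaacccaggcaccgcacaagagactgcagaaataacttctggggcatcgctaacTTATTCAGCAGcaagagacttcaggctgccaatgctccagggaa
The run starts at position 245 of the Ogn window and at position 257 of the Fmod window, counted from the 5′ end. It was taken after the sequences were seen, by a search for the longest run common to these windows. On either strand 10 of all 32851 RefSeq promoter windows hold it, which is 0.0304%. Those 10 include the Ogn and Fmod windows themselves. Because the run was picked from this pair, that share does not tell how often a pair of windows holds a common run of this length. A match of letters is a description and not a binding site.

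Neighbours of these genes on the chromosome did not all follow them. Ogn lies on chromosome 13 at 49608046 to 49624501, within the span of Cenpp on the opposite strand, to which 24 counts were assigned in replicate 2 and 23 in replicate 1. The same cluster holds other leucine-rich repeat genes. Ecm2 had 2.43 TPM in replicate 2 and 3.90 TPM in replicate 1, at a log2 ratio of -0.85 (-1.13 to -0.58). Aspn and Omd, which encode asporin and osteomodulin, had at most 0.49 TPM in either library, and their intervals included equality. Dcn and Lum lie 46984 bp apart on chromosome 10, and their ratios differed, at -0.42 for Dcn and 0.11 for Lum, with intervals that do not overlap. Kera, which lies beyond Lum, had 0.10 TPM in replicate 2 and 0.09 TPM in replicate 1.

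Collagen VI forms beaded microfilaments between fibrils and basement membranes, from chains that include Col6a1, Col6a2 and Col6a3. Its transcripts were unequal in both libraries. Col6a1 had 18.2 TPM in replicate 2 and 19.8 TPM in replicate 1. Col6a2 had 2.53 TPM in replicate 2 and 3.87 TPM in replicate 1, and Col6a3 had 2.20 TPM in replicate 2 and 2.62 TPM in replicate 1. Col6a1 over Col6a2 was thus 7.21 in replicate 2 and 5.12 in replicate 1, and Col6a1 over Col6a3 was 8.29 in replicate 2 and 7.57 in replicate 1. Col6a1 lay above Col6a2 in the second transcript table as well, at a ratio of 6.99 in replicate 2 and 4.85 in replicate 1. Col6a1 and Col6a2 are 85161 bp apart on chromosome 10. Their log2 ratios were -0.13, with an interval of -0.24 to -0.03, and -0.59, with an interval of -0.86 to -0.32. Col6a3 had a log2 ratio of 0.10 that was -0.14 with spike-in scaling, and its TPM, unlike its scaled counts, was lower in replicate 2.

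Basement membrane genes were the role group with the most ratios above 0, at 6 of 9, but at 3 of 9 with spike-in scaling, which turned Col4a2, Lama2 and Lamc1. Col4a1 had 25.4 TPM in replicate 2 and 17.1 TPM in replicate 1, from 1798 and 1687 counts. This gave a log2 ratio of 0.35 (0.25 to 0.45), and it was 0.11 with spike-in scaling. Col4a2 had 23.8 TPM in replicate 2 and 21.4 TPM in replicate 1, from 2664 and 2771 counts. Its log2 ratio was 0.20 (0.12 to 0.28), and it was -0.04 with spike-in scaling. These chains build the collagen IV network of nearly all basement membranes, and their mean levels of 21.2 ± 5.88 and 22.6 ± 1.75 TPM did not differ beyond their spread. Their order depended on the table. Col4a1 over Col4a2 was 1.07 in replicate 2 and 0.799 in replicate 1 in the gene table, and 1.64 in replicate 2 and 1.28 in replicate 1 in the second transcript table.

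Col4a1 (ENSMUSG00000031502.11) and Col4a2 (ENSMUSG00000031503.13) are transcribed away from each other on chromosome 8. Their annotated spans, 11198423 to 11312826 on the minus strand and 11312805 to 11449287 on the plus strand, overlap by 22 bp. Their RefSeq promoter windows are printed because they share a stretch of DNA. The windows are chr8:11312777-11313076 on the minus strand for Col4a1 and chr8:11312555-11312854 on the plus strand for Col4a2, on GRCm38.p6. Capitals mark the 78 bases that lie in both windows, read as reverse complements of each other.
Col4a1: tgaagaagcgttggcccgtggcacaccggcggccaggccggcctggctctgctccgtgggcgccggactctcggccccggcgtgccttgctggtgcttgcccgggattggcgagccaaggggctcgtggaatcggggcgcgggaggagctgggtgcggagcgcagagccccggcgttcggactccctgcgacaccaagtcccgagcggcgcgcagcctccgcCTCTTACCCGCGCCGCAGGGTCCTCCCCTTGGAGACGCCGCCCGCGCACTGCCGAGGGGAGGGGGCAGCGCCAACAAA
Col4a2: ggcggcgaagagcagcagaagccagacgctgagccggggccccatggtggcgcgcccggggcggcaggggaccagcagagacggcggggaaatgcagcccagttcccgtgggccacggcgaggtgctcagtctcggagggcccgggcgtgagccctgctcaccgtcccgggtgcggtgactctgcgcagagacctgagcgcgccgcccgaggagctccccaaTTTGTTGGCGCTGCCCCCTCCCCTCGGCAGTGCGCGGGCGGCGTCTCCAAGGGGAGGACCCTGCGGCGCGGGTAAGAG
Both windows hold the letters CCAAT and GGGCGG on at least 1 strand, and neither holds TATAAA. The annotated spans of the paired genes share only those 22 bp, and whether counting used strand was not stated in the sources.

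Laminins are trimers of an alpha, a beta and a gamma chain. The beta chain Lamb1 had 15.1 TPM in replicate 2 and 18.4 TPM in replicate 1, at a log2 ratio of -0.40 (-0.50 to -0.29). The gamma chain Lamc1 had 13.3 TPM in replicate 2 and 12.2 TPM in replicate 1. Its log2 ratio was 0.07, with an interval that included equality, and it was -0.17 with spike-in scaling. Lamc1 over Lamb1 was 0.877 in replicate 2 and 0.664 in replicate 1. Each alpha chain among the 41 genes was at a lower level. Lama2, known from fibroblast and astrocyte laminins, had 5.21 TPM in replicate 2 and 4.55 TPM in replicate 1, at a log2 ratio of 0.09 that was -0.15 with spike-in scaling. Lama4, known from vascular laminins, had 4.49 TPM in replicate 2 and 2.56 TPM in replicate 1, at a log2 ratio of 0.31 (0.05 to 0.57). The log2 ratio of its TPM was larger, at 0.81, with an effective length of 3159 bases in replicate 2 and 4464 in replicate 1. Lama1, known from the pial surface, had 1.31 TPM in replicate 2 and 1.79 TPM in replicate 1, at a log2 ratio of -0.57 (-0.85 to -0.30). The intervals of Lama1 and Lama4 thus lie on opposite sides of equality, and with spike-in scaling Lama4 was at 0.07 and Lama1 at -0.81. The levels of Lama1, Lama2 and Lama4 summed to 0.829 of the Lamc1 level in replicate 2 and 0.727 in replicate 1. That sum is not the total of the alpha chains. It leaves out Lama5, with 5.05 TPM in replicate 2 and 3.67 TPM in replicate 1. Lama3, also left out, had 2.76 TPM in replicate 2 and 1.61 TPM in replicate 1. Lamb2, a further beta chain outside the 41 genes, had 18.6 TPM in replicate 2 and 15.3 TPM in replicate 1.

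Col15a1, a collagen of the outer basement membrane zone of vessels, had 4.17 TPM in replicate 2 and 2.77 TPM in replicate 1. On the log2 scale this was 0.45 (0.13 to 0.79), and it stayed above 0, at 0.21, with spike-in scaling. Nid1, the nidogen that links laminin to collagen IV, had 1.79 TPM in replicate 2 and 2.43 TPM in replicate 1, at a log2 ratio of -0.44 (-0.71 to -0.17). The group therefore held genes on both sides under TMM scaling. Col4a1, Col4a2, Lama4 and Col15a1 were higher and Lama1, Lamb1 and Nid1 lower in replicate 2 by more than counting error. With spike-in scaling Col4a2 turned, and Lama4 and Col4a1 were at only 0.07 and 0.11, with no intervals given for that scaling.

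Fibulins and fibrillin contribute to microfibrils, elastic fibres and their anchorage. Fbln1 had 7.37 TPM in replicate 2 and 9.54 TPM in replicate 1, at a log2 ratio of -0.34 (-0.55 to -0.14). Fbln5, which is needed for elastic fibre assembly in mice, had 1.89 TPM in replicate 2 and 2.91 TPM in replicate 1, at a log2 ratio of -0.56 (-0.99 to -0.16). Fbn1, the core protein of microfibrils, went the other way, with 4.88 TPM in replicate 2 against 4.34 TPM in replicate 1, with a log2 ratio of 0.26 (0.10 to 0.41) and of 0.01 with spike-in scaling. Fbln2 had 5.38 TPM in replicate 2 and 5.61 TPM in replicate 1. Its scaled counts gave a log2 ratio of 0.08, which was -0.16 with spike-in scaling, so no direction can be given.

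Among the secreted regulators and enzymes, Ptgds had the highest level of all 41 genes. It encodes the lipocalin-type prostaglandin D synthase, an abundant protein of cerebrospinal fluid. Ptgds (ENSMUSG00000015090.13, chromosome 2, 25466709 to 25470046, minus strand) had 369 TPM in replicate 2 and 640 TPM in replicate 1, from 4391 and 9004 counts. It was at place 62 of 22015 nuclear protein-coding genes by mean TPM. The log2 ratio of -0.78 had a narrow interval, -0.83 to -0.72, because of the high count. Sparc, which encodes a collagen-binding glycoprotein made by several brain cell types, had 137 TPM in replicate 2 and 138 TPM in replicate 1. The log2 ratio stood at -0.03 (-0.08 to 0.03), and it was -0.27 with spike-in scaling. The most abundant pair of genes thus differed in their spread, with Ptgds lower in replicate 2 and Sparc within counting error of equality under TMM scaling.

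Mmp2, a matrix metalloproteinase that cleaves collagen IV and gelatin, had the highest ratio of the 41 genes. It had 2.21 TPM in replicate 2 and 1.02 TPM in replicate 1, from 77 and 54 counts, at a log2 ratio of 0.75 (0.25 to 1.30). With spike-in scaling it remained above 0, at 0.51. The log2 ratio of the Mmp2 TPM was larger, at 1.12, with an effective length of 1978 bases in replicate 2 and 2503 in replicate 1. Mgp, an inhibitor of calcification in vessel walls, had 16.6 TPM in replicate 2 and 18.9 TPM in replicate 1. Pcolce, which speeds the removal of the procollagen C-propeptide, had 4.54 TPM in replicate 2 and 3.50 TPM in replicate 1. Serping1, an inhibitor of complement proteases, had 3.34 TPM in replicate 2 and 3.62 TPM in replicate 1. Islr, a leucine-rich repeat protein of mesenchymal cells, had 6.32 TPM in replicate 2 and 6.90 TPM in replicate 1. The intervals of Mgp, Pcolce, Serping1 and Islr included equality. Islr shares its strand and part of its span with Islr2, to which 2728 counts were assigned in replicate 2 and 3933 in replicate 1. The deposited posterior SD of the Islr count was at most 0.33 counts, from 222 counts in replicate 2 and 296 in replicate 1.

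All 3 transporters had ratios below 0, also with spike-in scaling. Slc6a13, a transporter of GABA and taurine known from the leptomeninges, had 3.61 TPM in replicate 2 and 7.21 TPM in replicate 1, from 117 and 267 counts. This gave a log2 ratio of -0.92 (-1.26 to -0.61), just short of the 2-fold limit, and it was -1.16 with spike-in scaling. Slc22a6, an organic anion transporter, had 1.27 TPM in replicate 2 and 1.98 TPM in replicate 1, at a log2 ratio of -0.63 (-1.03 to -0.25). Slc6a20a, a transporter of proline, had 6.81 TPM in replicate 2 and 8.03 TPM in replicate 1, with an interval that included equality. Slc6a20b, its neighbour and near relative, had 0.11 TPM in replicate 2 and 0.18 TPM in replicate 1.

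Retinoic acid genes and transcription factors were near the lower end of the range. Aldh1a2, which makes retinoic acid, had 3.46 TPM in replicate 2 and 3.29 TPM in replicate 1, at a log2 ratio of 0.07 that was -0.17 with spike-in scaling. Crabp2, which carries retinoic acid to its nuclear receptors, had 1.91 TPM in replicate 2 and 2.55 TPM in replicate 1, from only 28 and 44 counts, and its interval of -1.13 to 0.32 was wide. Foxc1, a forkhead factor that mice need to form the meninges, had 1.75 TPM in replicate 2 and 2.25 TPM in replicate 1, at a log2 ratio of -0.36 (-0.65 to -0.09). Foxd1, a forkhead factor known from stromal precursors, had 0.31 TPM in replicate 2 and 0.56 TPM in replicate 1, at a log2 ratio of -0.83 (-1.58 to -0.19). Tbx18, known from mural cells and fibroblasts, had 0.60 TPM in replicate 2 and 0.85 TPM in replicate 1, and its interval included equality. Ratios of all 3 factors were below 0, also with spike-in scaling.

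Other genes of the same pathways were read beside these. Of 18 collagen-processing genes with a ratio, 13 were lower and 5 higher, with a median log2 ratio of -0.24. With spike-in scaling all 18 were lower. Adamts2, which removes the N-propeptides of procollagens I and III, met the 2-fold rule as lower, as did 0.513% of all genes tested. It had 2.83 TPM in replicate 2 against 8.12 TPM in replicate 1. Its log2 ratio was -1.44 (-1.68 to -1.21). Ppib and Timp2, the most abundant genes of that list, had log2 ratios of 0.05 and -0.27, and Timp1 was at 0 counts in both libraries. Among 21 other collagen and basement membrane genes, 14 were higher and 7 lower, with a median of 0.06, and with spike-in scaling 6 were higher and 15 lower. Col8a1 and Col8a2, chains of collagen VIII, met the 2-fold rule as higher, as did 0.589% of all genes tested. Col8a1 had 1.43 TPM in replicate 2 and 0.31 TPM in replicate 1, with a log2 ratio of 2.27. Col8a2 had 2.01 TPM in replicate 2 and 0.81 TPM in replicate 1, with a log2 ratio of 1.29.

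The remaining pathway lists had medians between -0.12 and -0.03. Other fibroblast matrix and elastic fibre genes gave 11 lower and 5 higher of 16, with a median log2 ratio of -0.08. Matrix receptors gave 9 lower and 5 higher of 14, with a median of -0.03. Retinoid pathway genes gave 8 lower and 3 higher of 11, with a median of -0.09, and mesenchymal transcription factors 7 lower and 5 higher of 12, with a median of -0.12. Spike-in scaling made these 16 of 16, 12 of 14, 10 of 11 and 9 of 12 lower, where 20.1% of all genes were higher. No gene of these lists met the 2-fold rule under TMM scaling.

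Markers of other tissue at the hippocampal border also differed between the animals. All 12 choroid plexus epithelium markers were higher in replicate 2, under either scaling, with a summed level of 658 TPM in replicate 2 and 33.6 TPM in replicate 1. Ttr, the transthyretin gene that leads this list, had 615 TPM in replicate 2 and 21.8 TPM in replicate 1, and Kcne2 had 45 counts in replicate 2 and 0 in replicate 1. The 2-fold rule was met by 7 of the 8 markers of this list that it could test, against 0.589% of all genes tested that were higher by it. Of 14 further leptomeningeal and arachnoid genes, 12 were lower in replicate 2 and 2 higher, with a median log2 ratio of -0.46, and all 14 were lower with spike-in scaling. Of the 11 with a mean count of at least 50, the counting interval excluded equality for 7, all lower. Among all 14434 genes tested, 25.6% were lower and 18.7% higher by that interval rule. The whole list of 15 summed to 212 TPM in replicate 2 and 244 TPM in replicate 1. Apod and Gjb6 made up much of this sum. Apod had 76.0 TPM in replicate 2 and 80.9 TPM in replicate 1, with an interval that included equality. Gjb6 had 44.2 TPM in replicate 2 and 51.1 TPM in replicate 1, at a log2 ratio of -0.49 (-0.61 to -0.38). From which cells of the tissue the Apod and Gjb6 RNA came was not tested. Dpep1, a marker of this list with no ratio, had 2 counts in replicate 2 and 0 in replicate 1. Border macrophage markers were lower in 5 of 5 under either scaling, but their counts were low, and only Mrc1 exceeded 1 TPM in each library. The 3 with a mean count of at least 50 had intervals wholly below 0, as did 25.6% of all genes tested. Cbr2, with 6 counts in replicate 2 and 14 in replicate 1, and Lyve1, with 15 and 28, had intervals that included equality. The whole list of 6 summed to 3.96 TPM in replicate 2 against 7.58 TPM in replicate 1. That sum includes Pf4, which had no ratio, from 2 counts in replicate 2 and 9 in replicate 1. F13a1 met the 2-fold rule among these markers, with 39 counts in replicate 2 and 110 in replicate 1. Of all genes tested, 0.513% were lower by that rule.

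Vascular markers differed less. Endothelial markers gave 6 lower and 4 higher of 10, with summed levels of 160 TPM in replicate 2 and 161 TPM in replicate 1. Mural markers gave 6 lower and 6 higher of 12, with 94.1 TPM in replicate 2 and 98.4 TPM in replicate 1. Spike-in scaling made 8 of 10 and 9 of 12 of these lower. Markers of oligodendrocytes were higher in 6 of 7, and in 4 of 7 with spike-in scaling. Astrocyte markers were lower in 4 of 7, and in 7 of 7 with spike-in scaling. Microglia and hippocampal neuron markers were each higher in 5 of 7, and in 1 of 7 with spike-in scaling. What part the amount of choroid plexus, leptomeninges, border macrophages or any other of these cell types had in the ratios of the 41 genes was not tested.

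**Figure D3:**
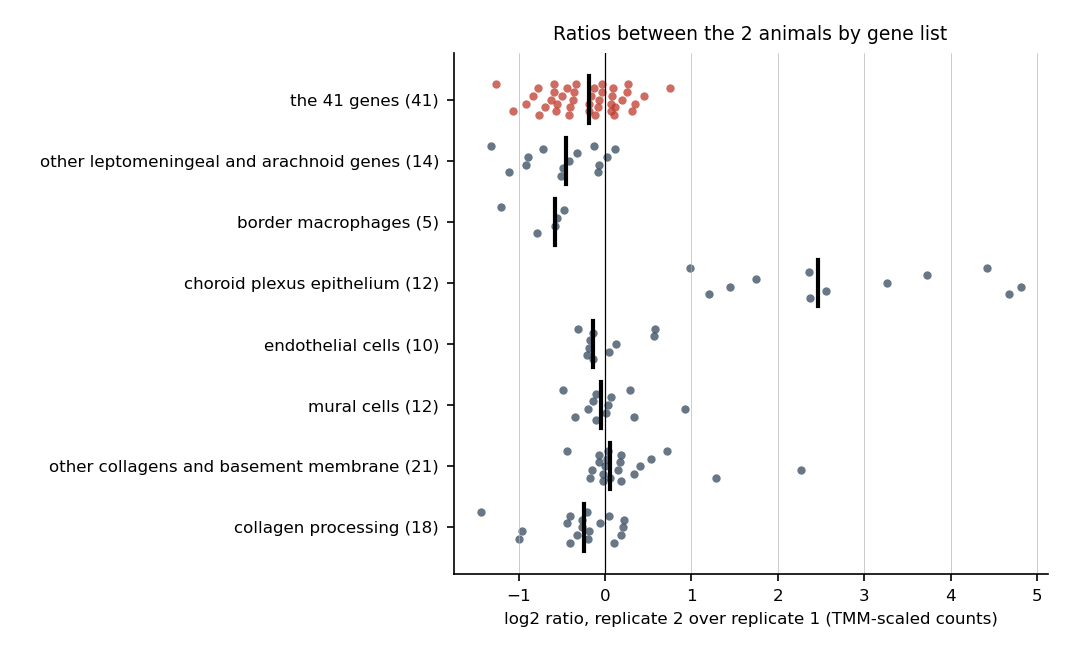
Log2 ratios of replicate 2 over replicate 1 by gene list, from TMM-scaled counts, with a point for each gene that averaged 10 or more counts, the number of such genes in brackets and a black bar at the median. The 41 genes have a median of -0.18, and the nearest medians shown are those of collagen processing at -0.24 and endothelial markers at -0.14. The choroid plexus markers all lie above 0.

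Transcripts annotated for a gene can differ in whether they encode its protein. In the first transcript table, coding transcripts held at least 90% of the gene's TPM in both libraries for 22 of the 41 genes. Fbln2 had the lowest share, at 42.1% in replicate 2 and 44.9% in replicate 1, because retained-intron transcripts held much of its TPM. Col15a1 was at 45.3% in replicate 2 and 54.9% in replicate 1, and Lama4 at 45.5% in replicate 2 and 62.3% in replicate 1. A TPM of such a gene is therefore not the level of its coding RNA. Short partial transcripts also weigh heavily in TPM.

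For 8 genes, the most abundant with at least 2 transcripts each holding a mean of at least 10%, the shares were set beside those of the second transcript table. Sparc was steady, with Sparc-202 at 71.5% in replicate 2 and 71.6% in replicate 1 in the first table, and 64.8% in replicate 2 and 58.0% in replicate 1 in the second. Fbln1-202 held 70.0% in replicate 2 and 64.7% in replicate 1 in the first table, and also led in the second. Bgn-201 held 85.9% in replicate 2 and 83.4% in replicate 1 in the first table, and at least 97.4% in the second. For Ptgds the tables disagreed. Ptgds-202 led the first table at 49.3% in replicate 2 and 42.8% in replicate 1, while Ptgds-201 led the second at 78.6% in replicate 2 and 78.5% in replicate 1. These coding transcripts are 830 and 901 bases long, and which of them is made cannot be told from the tables.

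Some shares differed between the animals. Islr-202 held 87.4% in replicate 2 and 59.1% in replicate 1 in the first table, and 82.9% in replicate 2 and 46.7% in replicate 1 in the second. Slc6a20a-201 held 95.3% in replicate 2 and 80.0% in replicate 1 in the first table, and 70.8% in replicate 2 and 56.0% in replicate 1 in the second. Both tables thus gave the larger share of these transcripts to replicate 2, and no test of the difference was made. Col4a1-208, annotated as a target of nonsense-mediated decay, held 25.9% in replicate 2 and 42.4% in replicate 1 in the first table but 15.1% in replicate 2 and 17.0% in replicate 1 in the second. Col4a1-204, a short processed transcript, was at 0% in the first table and at 25.9% in replicate 2 and 34.4% in replicate 1 in the second.

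**Figure D4:**
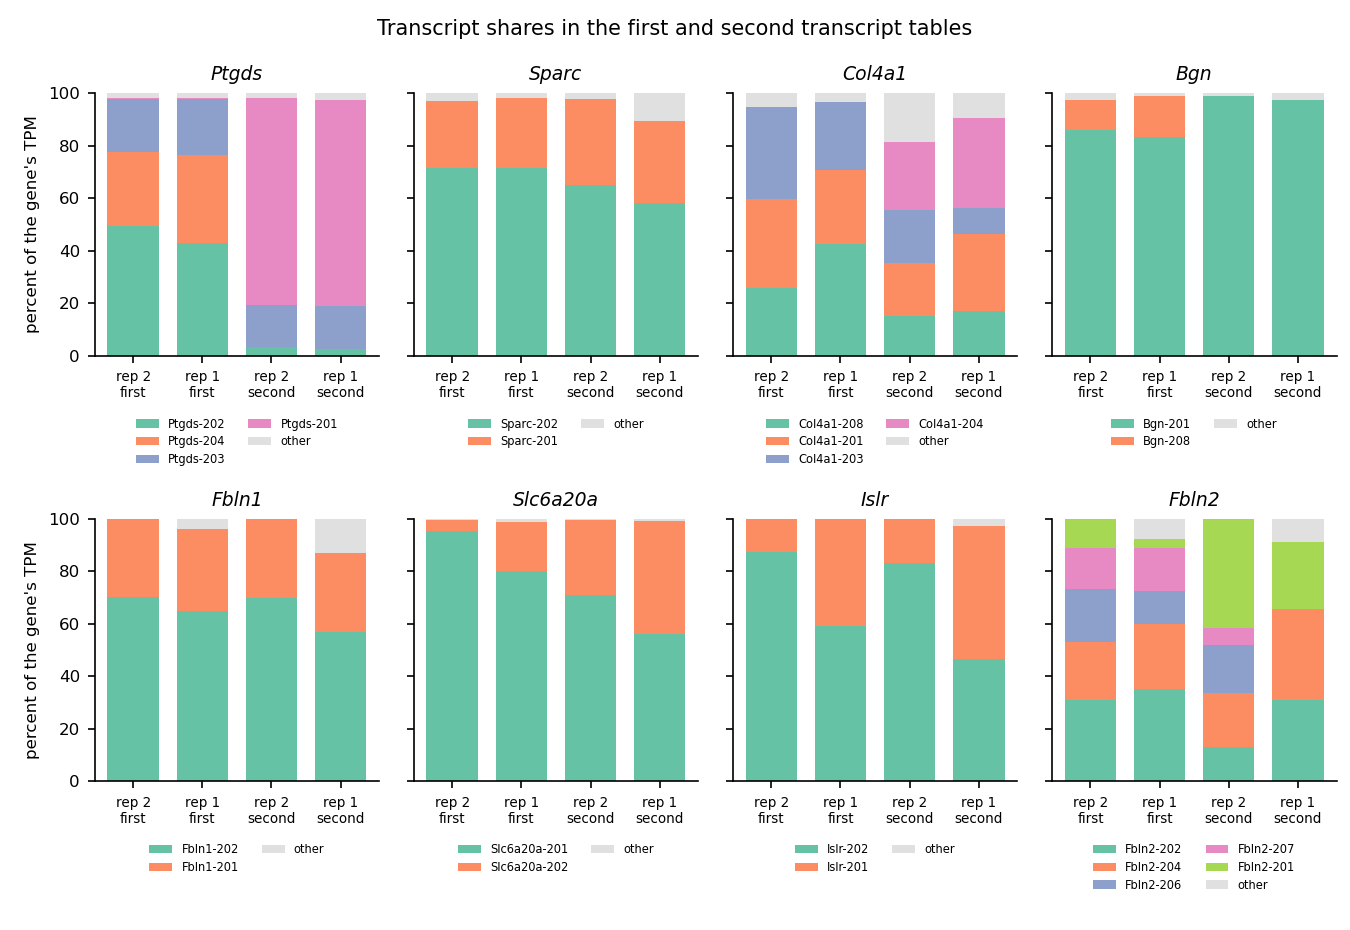
Percent of each gene's TPM held by its annotated transcripts for 8 genes, as stacked bars for replicate 2 and replicate 1 in the first and the second transcript table. The tables give like shares for Sparc and Fbln1 and different leading transcripts for Ptgds, and Islr-202 holds more in replicate 2 in both.

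The genes are spread over 16 chromosomes. RefSeq promoter windows were matched for 30 of the 41, in 35 windows of 300 bases. The letters TATAAA were on either strand of 5.71% of these windows, those of Col3a1 and Ogn, against 13.6% of all 32851 windows. CCAAT was in 40.0% of them, against 37.4% of all windows, and GGGCGG, the GC box, in 54.3%, against 35.7%. The median ratio of observed to expected CpG was 0.43, against 0.38 over all windows. These shares describe letters in a fixed window and say nothing of which factors bind there.

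Read assignment inside the annotation was firm for most of the genes. The deposited posterior SD of the count was 0 in both libraries for 37 of the 41 genes, and the largest was 2.25 counts, for Slc6a20a. Another annotated gene overlapped 19 of the 41, on the opposite strand in 16 cases. Leaving aside Col4a1 and Col4a2, at most 66 counts were assigned in either library to any such opposite-strand gene.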

How the data were processed

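Total RNA-seq of 2 mouse hippocampus libraries was analysed from the deposited gene and transcript tables, on mm10 and GENCODE M21 according to the file notes. Expected counts were deposited without normalisation and TPM after length normalisation by the authors, in the RSEM column layout per the file headers. The second transcript table holds estimated counts and TPM deposited in the kallisto layout, made from a single FASTQ file. FPKM was deposited by the authors and was used for 1 alternative. The first transcript table also holds, as deposited, each transcript's percent of the TPM of its gene. The posterior SD of a count is a deposited signal in counts, which covers read assignment only. For the aligner, tool versions and strand setting, nothing is stated: not given in the sources used here.

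Members and lists were chosen with earlier results of these data known. All 41 members matched a gene identifier, as did all markers but 1. Expected counts were rounded, spike-ins were left out of library sizes, and TMM scaling in edgeR 4.0.16 under R 4.3.3 gave effective sizes of 28448001 counts in replicate 2 and 34038040 in replicate 1. Log2 ratios used a prior count of 2 and needed a mean count of at least 10. The ratio calculation was tested on simulated data. Intervals cover counting error only, and no p-value was computed. All 41 members are named, with the 8 isoform genes chosen by level, and the rule for other lists took in the most abundant, the lowest and those differing at least 2-fold, of which only some are reported here. Cenpp, Ecm2, Aspn, Omd, Kera, Islr2 and Slc6a20b were taken as genome neighbours, and Kcne2, Dpep1 and Timp1 as genes with a count of 0. Cbr2, Lyve1 and Pf4 were named for their low counts. Lama3, Lama5 and Lamb2 were named as further laminin chains. Alternatives were DESeq2 1.42.0 size factors, upper quartile and spike-in scaling, the second table, other count and level minimums, and, chosen after seeing the data, the ratio of TPM. Promoter sequences are from RefSeq on GRCm38.p6.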

Additional observations from a re-analysis of the deposited data

How the results depend on the processing

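Scaling by spike-ins was the setting that moved the results. It left 6 of the 41 genes higher in replicate 2, against 13, while 20.1% of all genes with a ratio were then higher, against 48.5% with TMM. It also put 5 past the 2-fold rule as lower, against 2. Those 5 were Col1a1, Fmod, Ogn, Ptgds and Slc6a13, beside 1.16% of all genes lower by that rule under this scaling. Of all 2-fold calls 21.5% were then higher in replicate 2, from 46 higher and 168 lower, against 53.5% with TMM. The sign turned for Lum, Col6a3, Col4a2, Lama2, Lamc1, Fbln2 and Aldh1a2. Under DESeq2 size factors, upper quartile scaling and the second transcript table, 13 genes were again higher and 2 met the 2-fold rule as lower. With the ratio of TPM, chosen after seeing the data, 11 were higher. Detection in both libraries ranged from 30 at a TPM of at least 2 to 40 at 0.5, with 37 in the second table and 35 at an FPKM of at least 1. With either replicate left out it was 39 of 41. No paired analysis was possible because the libraries form 1 group. Depth limits the low genes most: Foxd1 rests on 27 and 59 counts in replicates 2 and 1. With n = 2 and 1 group, the ratios describe these animals and no condition.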
